A study of Mus musculus with 6 samples.

Results

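The vascular endothelial growth factors (VEGFs), the angiopoietins and the angiopoietin-like proteins are secreted factors that act on blood and lymphatic vessels and on plasma lipids. Of 10 genes chosen by symbol from these families, 9 were measured: Vegfa, Vegfb, Vegfc, Vegfd, Pgf, the receptor gene Flt1, Angpt1, Angpt2 and Angptl4. Angptl2 had no probe set that carries this symbol alone, so it is not described. These 9 genes are among 19938 genes with a probe set of a single symbol, of which 17145 were tested. Vegfd is listed as Figf in older annotations.

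The cells were NIH/3T3, an immortalized line of mouse fibroblasts. They were stably transfected with HA-tagged RPB1, the catalytic subunit of RNA polymerase II, and 3 arrays carried RNA of wild type RPB1 cells and 3 carried RNA of 8KR cells. In 8KR the lysines at position 7 of the repeats of the C-terminal domain are replaced with arginine, which keeps their charge and cannot be acetylated. All cells of both groups were grown with 10% bovine calf serum and 2 µg/ml α-amanitin, a mushroom toxin that blocks transcription by RNA polymerase II. Both groups thus share the drug, the HA tag and a transfected RPB1, and the sources used here do not say whether each group derives from 1 clone. The replicates are called biological, but nothing states that they came from separate transfections, so p-values measure the spread between these samples only.

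Polr2a, which encodes RPB1, had a log2 intensity of 12.10 ± 0.01 in wild type and 12.13 ± 0.01 in 8KR cells (SD, n = 3 each), and the sources used here do not say whether its probe set tells transfected from endogenous transcripts. Array medians ran from 4.49 to 4.54 on the log2 scale. Pairs of arrays from the same group correlated at 0.982 to 0.984, and pairs from different groups at up to 0.978.

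VEGF ligands are dimers that bind receptor tyrosine kinases of endothelial cells. VEGF-A acts through KDR and FLT1 and is the main inducer of blood vessel growth, whereas VEGF-C and VEGF-D act through FLT4 on lymphatic vessels. VEGF-B and placental growth factor (Pgf) bind FLT1, which also exists as a soluble form that captures ligand. Angiopoietin 1 activates the receptor TEK and angiopoietin 2 can oppose it. ANGPTL4 is structurally related to them but inhibits lipoprotein lipase. Fibroblasts are a known source of several of these ligands, which act on neighbouring endothelial cells.

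Vegfd and Vegfa were the 2 members that passed the test, in opposite directions. The reference sequence ahead of their start sites is shown for that reason, so that the start regions of both genes can be compared by eye. The sequences are the 250 bases before the start of each gene in RefSeq (build GRCm38.p6), read 5′ to 3′ on the strand of the gene. The Vegfd window lies on the plus strand at chrX:164373272-164373521 and the Vegfa window on the minus strand at chr17:46032378-46032627. Capitals mark matches, on either strand, to 5 short motifs: the core of the hypoxia response element (ACGTG), the AP-1 site (TGANTCA), the CCAAT box, the GC box (GGGCGG) and the TATA box (TATAAA).
Vegfd: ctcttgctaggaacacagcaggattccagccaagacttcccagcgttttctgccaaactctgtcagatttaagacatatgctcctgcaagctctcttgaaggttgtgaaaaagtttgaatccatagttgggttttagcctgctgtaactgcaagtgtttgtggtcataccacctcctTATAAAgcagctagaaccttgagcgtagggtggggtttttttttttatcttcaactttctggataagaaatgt
Vegfa: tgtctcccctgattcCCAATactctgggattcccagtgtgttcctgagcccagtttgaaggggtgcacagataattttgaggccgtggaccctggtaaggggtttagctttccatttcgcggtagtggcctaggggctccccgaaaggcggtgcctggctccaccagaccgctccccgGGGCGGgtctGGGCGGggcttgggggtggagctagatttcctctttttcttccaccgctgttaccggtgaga
The Vegfd window held a TATAAA match that begins 73 bases before the start and none of the other 4 motifs. The Vegfa window held GGGCGG matches that begin 72 and 62 bases before the start and CCAAT 235 bases before it. None of these matches overlap. Of 32851 such windows in the table, 12.4% held TATAAA, 32.7% GGGCGG, 33.8% CCAAT, 16.6% ACGTG and 6.75% TGANTCA. The Vegfd window was 42.4% G and C and the Vegfa window 59.2%, where the median of all windows was 52.4%. Vegfa has a further listed start, with its window at chr17:46025164-46025413. On the minus strand this window lies downstream of the first start, so it is not sequence ahead of that start. It held ACGTG on the opposite strand 211 bases before its own start, GGGCGG 158 bases before it and CCAAT on the opposite strand 60 bases before it. A match is a description of these letters only, and its absence says nothing of sites elsewhere.

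Vegfd, the lymphatic growth factor first named for its induction by c-Fos, had the largest difference of the 9 members. In wild type cells its 3 log2 intensities were 9.18, 9.21 and 9.04, and in 8KR cells they were 7.83, 7.39 and 7.54. All 8KR arrays thus lay more than 1 log2 unit below all wild type arrays. Vegfd fell by 1.56 on the log2 scale in 8KR cells (standard error 0.13, 95% interval -1.87 to -1.24, adjusted p = 0.00462 from limma). On a linear scale the level was 2.95-fold lower, with a ratio of 8KR to wild type of 0.339 (95% interval 0.273 to 0.422). The call held without any 1 of the 6 arrays, with adjusted p from 0.0102 to 0.0329 in limma.

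Vegfa, the principal angiogenic ligand, had the opposite pattern. In wild type cells its log2 intensities were 7.15, 7.11 and 7.01, in 8KR cells they were 8.00, 7.87 and 7.64, and the groups did not overlap. Vegfa rose by 0.75 on the log2 scale (standard error 0.11, 95% interval 0.47 to 1.02, adjusted p = 0.0241 from limma), or 1.68-fold (95% interval 1.39 to 2.03). This call was less stable than that of Vegfd. When wild type replicate 1, 2 or 3 was left out, the adjusted p from limma came to 0.0774, 0.0832 and 0.0884 in turn. Leaving out 8KR replicate 1 gave 0.0747 and leaving out replicate 2 gave 0.0904. The call held only with 8KR replicate 3 left out, at 0.0362. The log2 difference in these fits lay between 0.67 and 0.85.

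**Figure D1:**
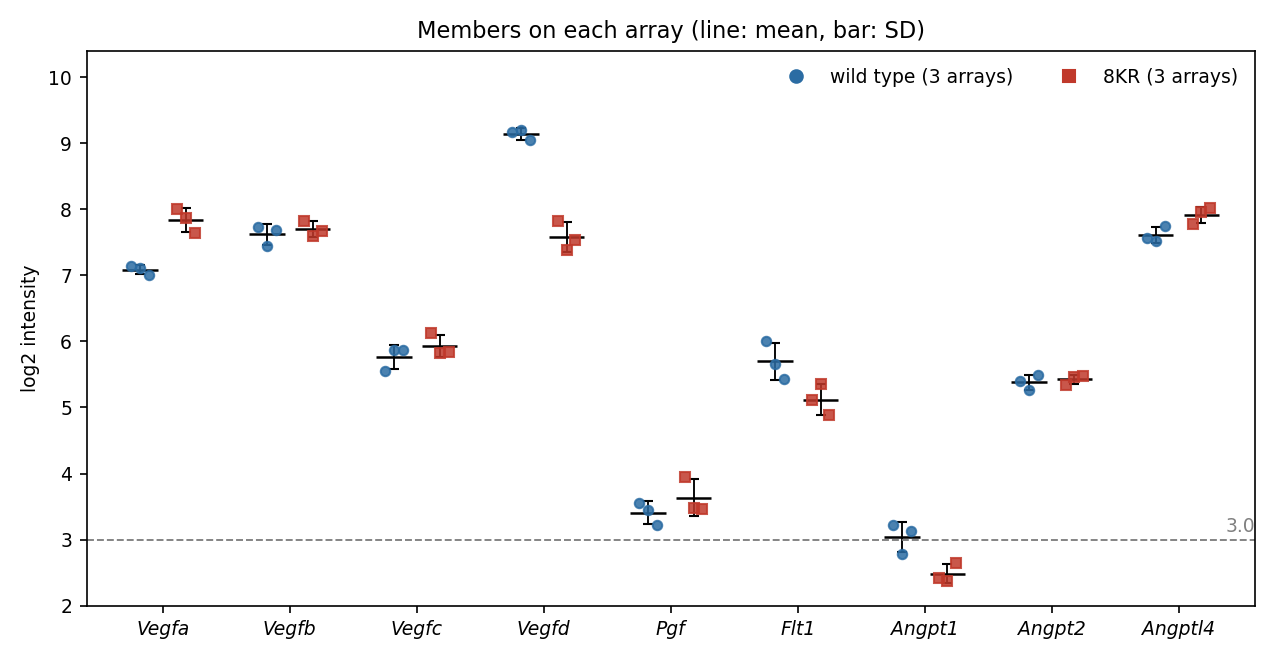
Log2 intensity (vertical axis) of the 9 measured members on the 3 wild type arrays (blue circles) and the 3 8KR arrays (red squares), with the mean as a line, the SD as a bar and the methods' background cutoff of 3.0 dashed. Vegfd lies lower and Vegfa higher on all 8KR arrays, while Vegfb, Vegfc, Pgf and Angpt2 overlap between groups and Angpt1 lies near or below 3.0.

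The log2 intensity of Vegfa minus that of Vegfd describes both differences in 1 value per array. It was -2.03, -2.10 and -2.03 in wild type cells, and in 8KR cells it was 0.17, 0.48 and 0.10. The pair was chosen for its opposite calls, so the difference of 2.31 between the group means only adds both changes and carries no test.

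The members were called in 2 of 9 cases, 1 higher and 1 lower, against 5.39% of all tested genes (2.33% higher and 3.06% lower). For 5 of the 9 the arrays of the 2 groups did not overlap, against 29.7% of all tested genes. An unadjusted p under 0.05 was reached by 5, against 21.8% of all tested genes. Both counts include Angpt1, which entered the test only through wild type cells. Of the 8 members with both group means above 3.0, 4 did not overlap and 4 had an unadjusted p under 0.05. The median log2 difference of the 9 was 0.07 and that of all tested genes 0.01. Without regard to sign the medians were 0.31 and 0.14. With 9 genes, these shares describe the list and carry no test.

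The other VEGF ligands did not pass. Vegfc, the other lymphatic ligand, had log2 intensities of 5.56, 5.86 and 5.87 in wild type and 6.12, 5.83 and 5.85 in 8KR cells. The groups overlapped, and the log2 difference was 0.17 (95% interval -0.15 to 0.49, adjusted p = 0.54 from limma). Leaving out wild type replicate 1 brought it to 0.07, and leaving out 8KR replicate 1 to 0.08. Vegfb, whose product binds FLT1, had values of 7.74, 7.44 and 7.69 in wild type and 7.83, 7.60 and 7.66 in 8KR cells. Its log2 difference was 0.07 (95% interval -0.20 to 0.35, adjusted p = 0.782 from limma), with overlapping groups. Pgf, the placental member of the family, had low values of 3.56, 3.44 and 3.22 in wild type and 3.95, 3.48 and 3.46 in 8KR cells. They stood little above 3.0, the cutoff for background in the methods, and the highest of them was 8KR replicate 1. The log2 difference was 0.23 (95% interval -0.18 to 0.63, adjusted p = 0.521 from limma), and 0.07 without that array.

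Flt1, the receptor and decoy for VEGF-A, VEGF-B and placental growth factor, had log2 intensities of 6.001, 5.66 and 5.43 in wild type and 5.11, 5.35 and 4.88 in 8KR cells. The groups did not overlap, but the lowest wild type array and the highest 8KR array were close together. The log2 difference was -0.58 (standard error 0.18, 95% interval -1.03 to -0.13), with an unadjusted p of 0.0194 and an adjusted p of 0.156 from limma, so Flt1 did not pass. Its SD of 0.29 in wild type cells was the widest of the 9 members in that group.

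The angiopoietins did not pass either. Angpt1, the ligand that activates TEK, had log2 intensities of 3.22, 2.79 and 3.12 in wild type and 2.42, 2.38 and 2.64 in 8KR cells. All 8KR arrays lay under the cutoff of 3.0, and Angpt1 entered the test only through its wild type mean of 3.04. The log2 difference was -0.56 (95% interval -0.91 to -0.22, adjusted p = 0.0897 from limma), and values in this range cannot be told from background. Angpt2, which can act as an antagonist of angiopoietin 1, had values of 5.40, 5.26 and 5.49 in wild type and 5.35, 5.46 and 5.47 in 8KR cells. The groups lay on top of each other, with a log2 difference of 0.04 (95% interval -0.18 to 0.26, adjusted p = 0.847 from limma).

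Angptl4, the inhibitor of lipoprotein lipase, had log2 intensities of 7.57, 7.52 and 7.75 in wild type and 7.78, 7.95 and 8.01 in 8KR cells. All 8KR arrays were higher, the closest pair by less than the SD within a group. The log2 difference was 0.31 (standard error 0.10, 95% interval 0.06 to 0.56), with an unadjusted p of 0.0236 and an adjusted p of 0.172 from limma, and it did not pass.

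**Figure D2:**
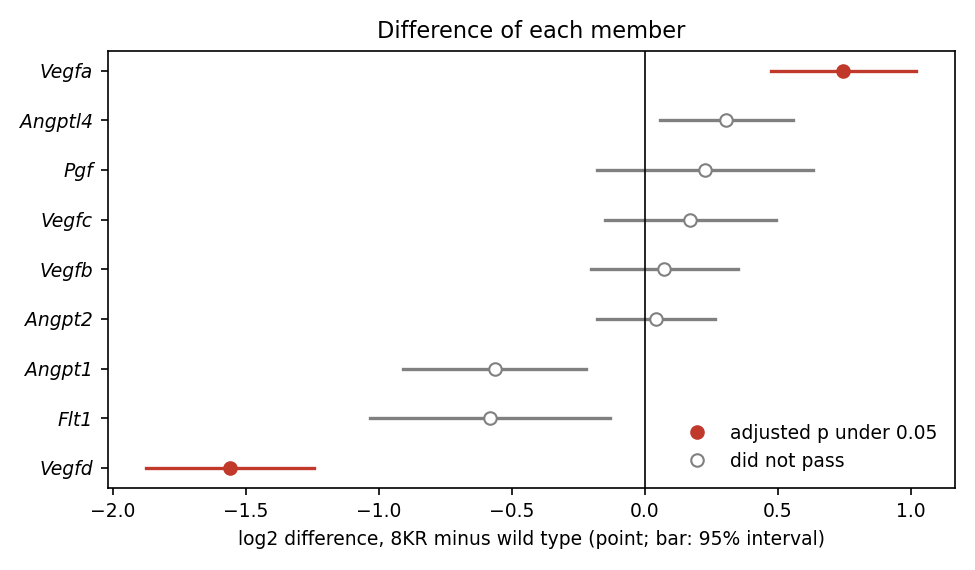
Log2 difference of each member between 8KR and wild type cells (horizontal axis, point), with its 95% interval as a bar and members that passed at an adjusted p under 0.05 filled in red. Vegfa at 0.75 and Vegfd at -1.56 passed, and the intervals of Flt1, Angpt1 and Angptl4 exclude 0 without passing after adjustment.

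Genes that act with these factors were read from lists of receptors, processing enzymes and regulators. Of 63 such genes tested, 3 rose, 7 fell and 53 did not pass, or 15.9% called against 5.39% of all tested genes. These counts fell to between 2 and 3 when any 1 of the 6 arrays was left out. Adm and Egln3, both higher, were called in each of those fits. The median log2 difference of the 63 was -0.03. The lists were chosen with earlier results of these data known, so the share called describes them and carries no test.

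The receptors of the ligands were low or did not differ detectably. Kdr, the main receptor of VEGF-A, had means of 2.79 ± 0.15 and 2.70 ± 0.12 (SD, n = 3 each) in wild type and 8KR cells, both under 3.0, and was not tested. Flt4, the receptor of VEGF-C and VEGF-D, had means of 3.30 in both groups and a log2 difference of 0.00 (95% interval -0.21 to 0.21). The coreceptor genes Nrp1 and Nrp2 were measured well above the cutoff, with log2 differences of 0.09 (adjusted p = 0.624 from limma) and -0.06 (adjusted p = 0.782). None of the 3 tested genes of this list was called by limma and none had an unadjusted p under 0.05. Over all tested genes these shares were 5.39% and 21.8%, so lists this small would often hold no call. Of the angiopoietin receptor genes Tek, Tie1 and Ptprb none passed. Tek had an unadjusted p of 0.0127 from limma, with means of 3.29 in wild type and 3.03 in 8KR cells, close to the cutoff of 3.0. Its groups did not overlap, as for 29.7% of all tested genes. Of 5 further angiopoietin family ligands tested, none was called by limma and none had an unadjusted p under 0.05, against the same 5.39% and 21.8%. Angptl6 had the smallest adjusted p of them, 0.283 from limma, with a log2 difference of 0.16.

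Of 6 genes that serve to cut VEGF-C and VEGF-D into their active forms, 4 had a lower mean in 8KR cells. For 1 of these the log2 difference was only -0.09. Pcsk7, a proprotein convertase, had log2 intensities of 5.85, 6.14 and 6.02 in wild type and 5.44, 5.44 and 5.57 in 8KR cells. It fell by 0.52 on the log2 scale (adjusted p = 0.0481 from limma) and was the only one of 6 genes in this list to pass. That is 16.7%, against 5.39% of all tested genes. The call of Pcsk7 was lost without any 1 of the 6 arrays. Ctsd, which encodes the protease cathepsin D, had a log2 difference of -0.43 (adjusted p = 0.0571 from limma), and Furin of -0.25 (adjusted p = 0.179). Ccbe1, a cofactor for the cleavage of VEGF-C, had a log2 difference of 0.35 (adjusted p = 0.135). Neither Ctsd, Furin nor Ccbe1 passed, although the arrays of the groups did not overlap for any of them, as for 29.7% of all tested genes.

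Lpl, the lipoprotein lipase that ANGPTL4 inhibits, had log2 intensities of 6.64, 6.83 and 6.48 in wild type and 5.92, 5.75 and 5.90 in 8KR cells. It fell by 0.80 on the log2 scale (adjusted p = 0.021 from limma), and none of its 8KR arrays reached the wild type range. The other 3 tested genes of its list did not pass, so 25.0% of it was called, against 5.39% of all tested genes. Their log2 differences were 0.39 for Lipg, 0.36 for Lmf1 and 0.06 for Gpihbp1. Without 1 array, the call of Lpl held only when wild type replicate 3 was left out. Of 9 tested PPAR factors and targets, a group that includes known inducers of Angptl4, Acadvl of fatty acid oxidation fell by 0.56 (adjusted p = 0.0244 from limma) and 8 did not pass. The share called was 11.1%, against 5.39% of all tested genes. The call of Acadvl was lost in all 6 fits without 1 array. Fabp4, which encodes a fatty acid carrier, had a log2 difference of -0.68 (adjusted p = 0.102 from limma) and Pdk4, a regulator of pyruvate use, of 0.31 (adjusted p = 0.104). The groups did not overlap for either, as for 29.7% of all tested genes. The nuclear receptor genes Pparg and Ppara had log2 differences of 0.21 and -0.21.

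**Figure D3:**
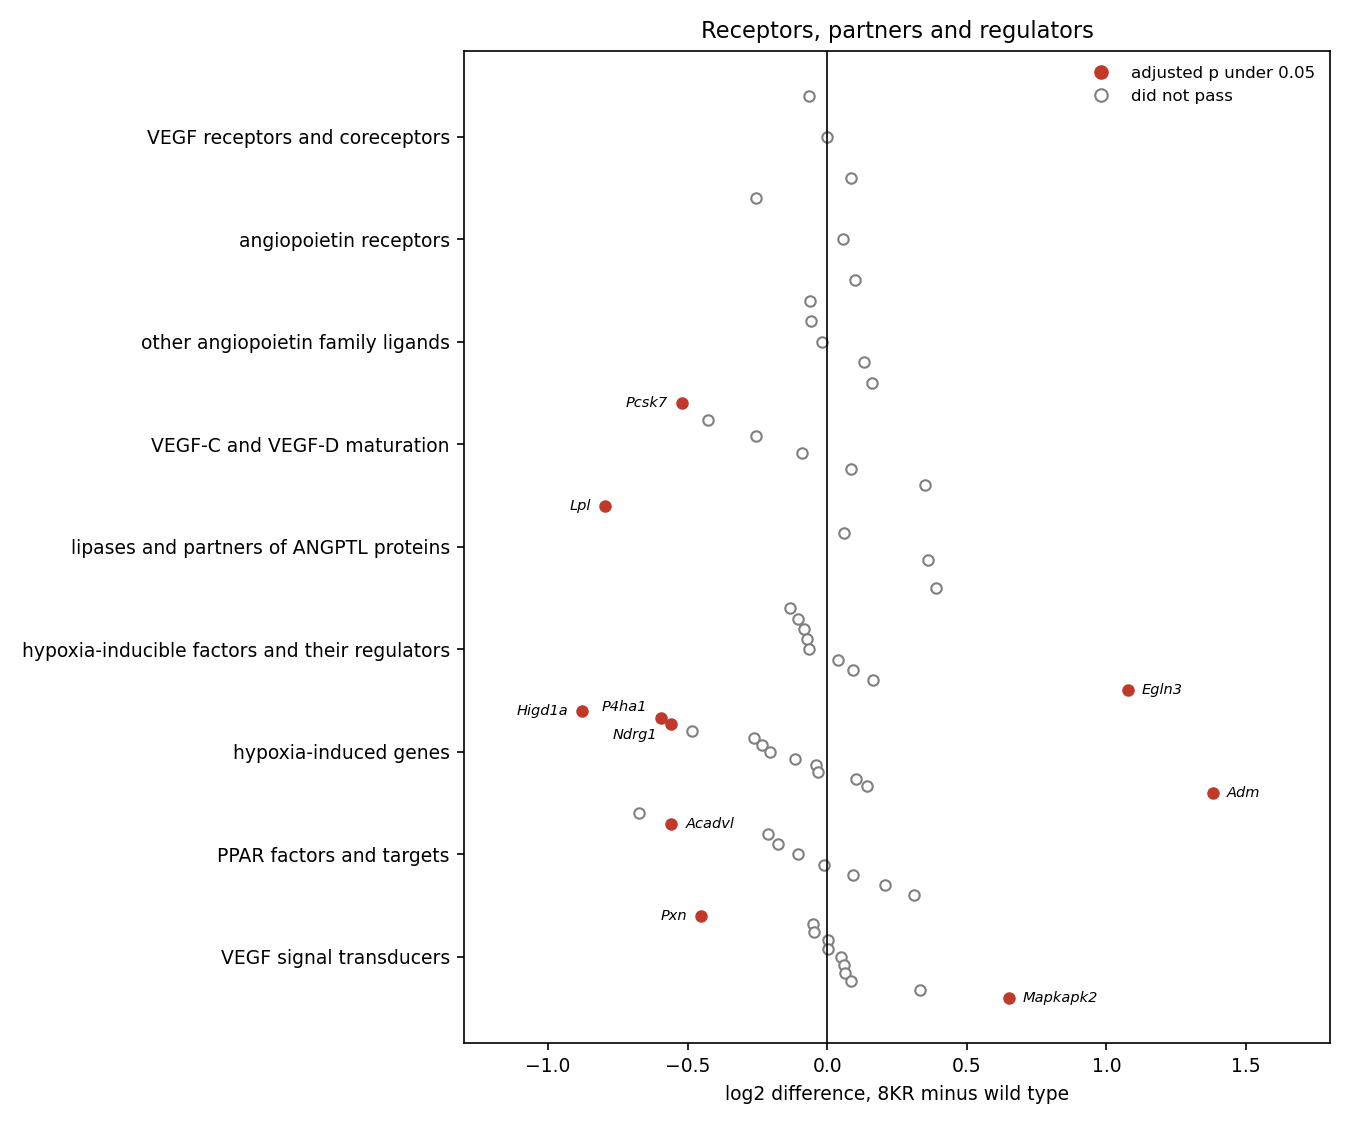
Log2 difference between 8KR and wild type cells (horizontal axis) for the tested genes of 9 lists of receptors, partners and regulators, with 1 point per gene and genes that passed at an adjusted p under 0.05 in red with their symbols. Adm at 1.38 and Egln3 at 1.08 lie farthest to the right and Higd1a at -0.88 farthest to the left, while no receptor passed.

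Vegfa and Angptl4 are both known targets of the hypoxia-inducible factors. Transcripts of the factors did not differ detectably, with log2 differences of -0.07 for Hif1a (95% interval -0.25 to 0.12), 0.16 for Epas1 and -0.11 for Hif3a. Of 9 factors and regulators, Egln3 alone passed, or 11.1% against 5.39% of all tested genes. Egln3 encodes a prolyl hydroxylase that marks these factors for decay and is itself induced in hypoxia. Its log2 intensities were 6.01, 5.74 and 5.97 in wild type and 7.07, 6.89 and 6.99 in 8KR cells, a rise of 1.08 (adjusted p = 0.00709 from limma).

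Genes that hypoxia induces moved in both directions. Of 13 genes, 1 rose, 3 fell and 9 did not pass, or 30.8% called against 5.39% of all tested genes (2.33% higher and 3.06% lower). The median log2 difference was -0.20. This list, too, was chosen with earlier results known, and its share carries no test. It leaves out Egln3, Vegfa and Angptl4, named above as induced in hypoxia or as targets of its factors. Their log2 differences were 1.08, 0.75 and 0.31, and Angptl4 alone of them did not pass. The counts and the median of the 13 thus depend on how genes were allotted to lists. Adm, which encodes the vasodilator peptide adrenomedullin, had log2 intensities of 6.97, 6.95 and 6.68 in wild type and 8.25, 8.29 and 8.20 in 8KR cells, a rise of 1.38 (adjusted p = 0.00315 from limma). Higd1a, a mitochondrial protein gene, fell by 0.88 (adjusted p = 0.0174), the collagen prolyl hydroxylase gene P4ha1 by 0.59 (adjusted p = 0.0355) and Ndrg1 by 0.56 (adjusted p = 0.0437 from limma). The fall of Higd1a held only without wild type replicate 1, and those of P4ha1 and Ndrg1 were lost in all 6 fits without 1 array. Among genes of glucose use that did not pass, log2 differences were -0.49 for Pdk1 (adjusted p = 0.0661 from limma), -0.23 for Pgk1 and -0.20 for Ldha.

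Among 11 tested genes of signal transduction downstream of VEGF receptors, Mapkapk2, a kinase that acts after p38, rose by 0.65 on the log2 scale (adjusted p = 0.0145 from limma). Its log2 intensities were 8.56, 8.56 and 8.60 in wild type and 9.25, 9.11 and 9.30 in 8KR cells. Pxn, which encodes the focal adhesion protein paxillin, fell by 0.45 (adjusted p = 0.0415 from limma). These 2 are 18.2% of the list, against 5.39% of all tested genes. The other 9 did not pass. They include Plcg1, a phospholipase activated by KDR, with a log2 difference of 0.33 (adjusted p = 0.0794). Among the fits without 1 array, the call of Mapkapk2 held only without 8KR replicate 2, and that of Pxn was lost in all 6.

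Markers of endothelial cells, the target cells of these ligands, were read on the same arrays. Of 16 markers, Kdr and Emcn had means under 3.0 in both groups, and the 14 tested had a median level of 4.15, where the median over all probe sets and arrays was 4.52. Egfl7, Plvap and Eng were the 3 above it, with wild type means of 5.26, 4.75 and 4.71. Levels of different probe sets also reflect their brightness. None of the 14 was called by limma, against 5.39% of all tested genes. Tek alone had an unadjusted p under 0.05, against 21.8% of all tested genes, and its means of 3.29 and 3.03 lay near the cutoff of 3.0. The summed linear intensity of all 16, Kdr and Emcn included, was 273 to 285 on wild type and 295 to 301 on 8KR arrays. This sum was higher in 8KR, but most of these markers lay below the median of 4.52. The part of the sum in the rise of Vegfa was not tested. The defining markers Pecam1 and Cdh5 had means of 3.74 and 4.14 in wild type and 3.74 and 4.14 in 8KR cells. Of 4 lymphatic markers, Prox1, Lyve1 and Flt4 had levels under 4.0 and did not pass, whereas Pdpn, which fibroblasts also make, fell by 0.47 (adjusted p = 0.0364 from limma). The share called was thus 25.0%, against 5.39% of all tested genes. The summed intensity of those 4, which Pdpn dominated, was 510 to 555 in wild type and 367 to 408 in 8KR cells.

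Mural cell markers, which include fibroblast contractile genes such as Acta2, had no call by limma among the 8 tested, against 5.39% of all tested genes. An unadjusted p under 0.05 was reached by 3, against 21.8% of all tested genes. The summed intensity of all 9 mural markers, which Acta2 dominated, was 3055 to 3138 in wild type and 3521 to 3551 in 8KR cells. Acta2 had a log2 difference of 0.29 (adjusted p = 0.0735), Des of -0.74 (adjusted p = 0.0945), Cspg4 of -0.64 (adjusted p = 0.0617 from limma) and Pdgfrb of -0.19, none of which passed. The part of these markers in the member results was not tested. Adipocyte, macrophage and epithelial markers had no call by limma and none with an unadjusted p under 0.05, over 4, 3 and 5 tested genes. The shares of all tested genes were 5.39% and 21.8%. The summed intensities of these 3 marker lists, over all markers with a probe set, overlapped between groups. The fibroblast label was met by Vim, Fn1, Thy1 and S100a4, with group means from 11.13 to 12.11, whereas the fibroblast markers Lum and Fap stood under 3.0 in both groups. Of 8 fibroblast markers tested, Pdgfra fell by 0.75 (adjusted p = 0.00785) and Col3a1 by 0.52 (adjusted p = 0.0364 from limma), and 6 did not pass. The share called was 25.0%, against 5.39% of all tested genes. The summed intensity of all 10 fibroblast markers, Lum and Fap included, was 15847 to 16311 in wild type and 15125 to 15398 in 8KR cells. In bulk RNA of a cell line, fewer cells that express a gene and less of its RNA per cell cannot be told apart.

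The genes beside Vegfa and Vegfd did not pass the test. With 5.39% of all tested genes called, few or no calls would be met among most sets of 10 genes. The absence of a call here is thus a description only. In the RefSeq gene order, none of the 10 nearest tested genes of Vegfd passed, and their log2 differences ran from -0.37 for Car5b to 0.43 for Mospd2, with a median of 0.06. Piga and Pir, next to Vegfd on either side, had log2 differences of -0.14 and -0.28. None of the 10 nearest genes of Vegfa passed either, with a range from -0.21 for 1600014C23Rik to 0.50 for Polh and a median of 0.02. Polh had an unadjusted p of 0.0113 (adjusted p = 0.116 from limma), and its 95% interval of 0.16 to 0.84 holds the value of Vegfa. Mrps18a, adjacent to Vegfa, had a log2 difference of 0.18.

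**Figure D4:**
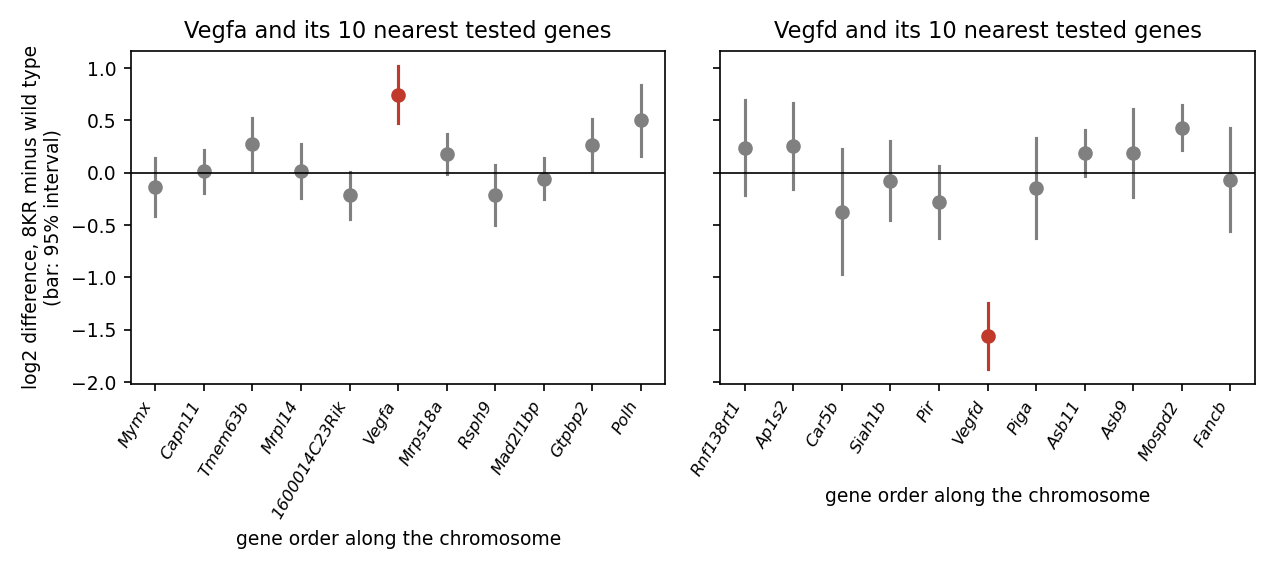
Log2 difference between 8KR and wild type cells (vertical axis, bar for the 95% interval) of Vegfa (left) and Vegfd (right), in red, and of the 5 nearest tested genes on each side, in grey, in gene order and not to distance. No neighbour passed, where 5.39% of all tested genes did. The interval of Polh beside Vegfa, 0.16 to 0.84, overlaps that of Vegfa, 0.47 to 1.02.

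Over the 6 arrays, the profiles most like that of Vegfd by Pearson's r were those of Adam10 (0.998), Pkia (0.998) and Atraid (0.997), and 439 genes exceeded 0.95. Those most like that of Vegfa were Enah (0.997), Wdhd1 (0.997) and Erc1 (0.997), with 258 genes above 0.95. With 2 groups of 3 arrays such values mostly reflect the difference between groups, and they are given as a description.

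**Figure D5:**
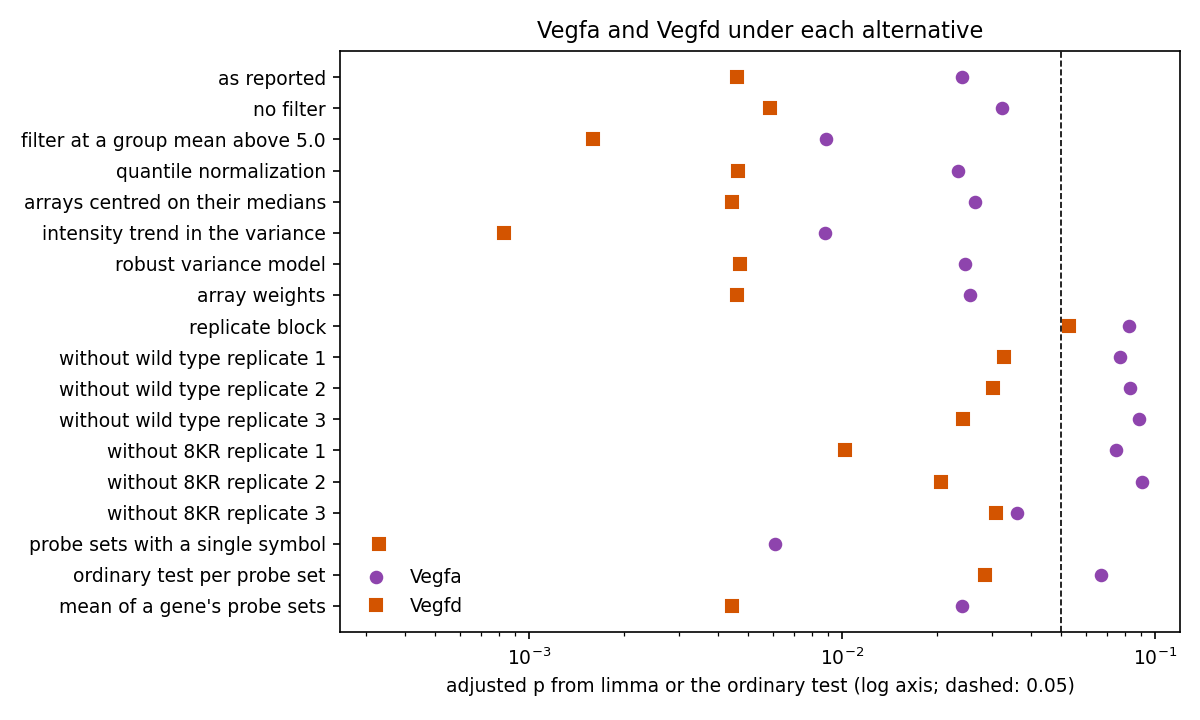
Adjusted p (horizontal axis, log scale, threshold of 0.05 dashed) of Vegfa (purple circles) and Vegfd (orange squares) as reported and under 17 alternative settings (vertical axis). Vegfd passes in all but the fit with the replicate number as a block, and Vegfa misses in that fit, in the ordinary test and in 5 of the 6 fits without 1 array.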

How the data were processed

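Gene expression was measured on Affymetrix Mouse Gene 1.0 ST arrays, 3 of wild type and 3 of 8KR cells, grouped by the sample titles. The authors normalized the intensities and deposited them on a log2 scale, for 35557 probe sets on each array. Affymetrix Power Tools 1.12.0 appears among the tools in the submitters' processing notes. How the arrays were normalized is not stated in the sources used here.

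From these values, 7014 probe sets in which neither group mean exceeded 3.0 were removed, as in the methods, and 28543 were fitted with lmFit and eBayes of limma 3.58.1 (R 4.3.3), without covariates. The Benjamini-Hochberg adjustment ran over all of them, and genes were called at an adjusted p under 0.05. Probe sets took their symbol from the platform annotation, updated through Entrez identifiers with the RefSeq table of GRCm38.p6. Those with 1 symbol numbered 21789, with several 1621 and with none 12147. Where a gene had several probe sets, that of the highest mean over the arrays stood for it, and each of the 9 members had 1. Intervals are 95% intervals of the moderated fit. The fit was tested on simulated data.

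The members and the lists were chosen with earlier results of these data known. Named genes were the members, the genes of each list that passed and up to 4 others with the smallest adjusted p, the defining markers, the 5 nearest tested genes on each side of a called member and the 3 genes most correlated with it. Promoter windows came from RefSeq and matched 7 of the 10 genes, with Angpt1, Angpt2 and Angptl4 missing. Alternatives covered the filter, normalization, variance model, array weights, replicate number, single arrays left out, probe sets used, test and threshold. The number of arrays limits the precision of every difference. Figures were drawn with matplotlib 3.10.9.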

Additional observations from a re-analysis of the deposited data

How the results depend on the processing

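Of the 9 members, 2 were called as reported above. The same 2 were called with no filter, a filter at a group mean of 5.0, quantile normalization and median centring. They were also called with an intensity trend, a robust variance model, array weights and the mean of a gene's probe sets. With the replicate number as a block 0 were called by limma, with adjusted p of 0.0826 for Vegfa and 0.0529 for Vegfd. The ordinary test called 1 and a threshold of 0.01 called 1, Vegfd in both. Without 1 array, 1 to 2 were called. With probe sets of a single symbol only, 3 were called, Angpt1 added at an adjusted p of 0.0362 in limma, on 8KR values that all lie under the background cutoff of 3.0. Of the 10 partners called, the block kept 1, the ordinary test 4, a threshold of 0.01 kept 2, and the fits without 1 array 2 to 3. With no filter 7 were called, without Ndrg1, Pcsk7 and Pxn. The filter at 5.0, the trend and single-symbol probe sets each called 14. Each added Ctsd, Pdk1 and Plcg1 to the 10 and 1 of Pdk4 or Fabp4. The filter at 5.0 left 44 partners and 7 members to test. Over all genes, the count called was 924 (5.39%) as reported above, 1737 (17.6%) with the filter at 5.0 and 1528 (8.91%) with the trend. It was 1638 (9.55%) over single-symbol probe sets, 692 (3.47%) with no filter, 210 (1.22%) at 0.01 and 63 (0.367%) with the block. Without 1 array it was 274 to 293 (1.59% to 1.71%). The share of all genes called thus also rose in the settings with 14 partners. Without wild type replicate 2, the log2 difference was -0.0168 for Vegfb and -0.0198 for Angpt2, opposite in sign to the values reported, which had not passed. Over the 6 fits without 1 array the highest were 0.1304 for Vegfb and 0.0961 for Angpt2. Pgf and Angpt1 were not tested with the filter at 5.0, nor was Angpt1 without wild type replicate 1. The cause of these changes was not tested. The fits without 1 array also rest on fewer arrays, and the part of this was not tested either. Deviations of arrays with the same number correlated at -0.0113, 0.0086 and -0.0005, and arrays did not all correlate best with their own number, so the number was not taken to pair them.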
